A study of Mus musculus with 6 samples.

Results

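The promoters of the nuclear genes for the respiratory chain and the mitochondrial ribosome were examined for Dppa2 binding in the V5-Dppa2 ChIP-seq of mouse embryonic stem cells (ESCs). Some of these genes encode forms restricted to certain tissues, and their expression was not examined here. The genes were chosen by symbol from the protein-coding genes of GENCODE M1 on mm9, and 169 of 22367 protein-coding genes matched. By symbol they fall into complex I subunits (Nduf, 39 genes), complex I assembly factors (Ndufaf, 4), complex II (Sdha to Sdhd, 4) and complex III (Uqcr, 8). The rest carry symbols of complex IV (Cox4 to Cox8, 19), ATP synthase (Atp5, 18) and the large (Mrpl, 47) and small (Mrps, 30) subunits of the mitochondrial ribosome. Of these, 5 lie outside the complexes or are named as pseudogenes, namely Cox4nb, Atp5s, Atp5sl, Atp5l-ps1 and Mrps36-ps1, and Ndufb8 is counted under 2 gene entries. None of these was bound. A gene was called Dppa2-bound when the midpoint of a peak lay within 1 kb of the transcription start site (TSS) of any of its transcripts.

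The data come from CGR8, a mouse ESC line grown on gelatin without feeders in medium with leukemia inhibitory factor. In the ChIP sample the cells stably expressed Dppa2 with an N-terminal V5 tag from a pPyCAG expression vector, after puromycin selection of transfected clones. The endogenous Dppa2 gene was not stated to be altered. Parental CGR8 cells without a V5 tag served as the control for the anti-V5 antibody, and entered only through the authors' peak calling. There is 1 library per condition, so no replicate error can be given and no test between conditions was possible. The authors deposited 3336 peaks with names that refer to TSSs. Each has a score that grows with the significance MACS assigned, where 100 stands for a p-value of 1e-10, and the highest score is 3100. Sequencing depth is unknown from a peak list, and a peak list does not allow the cell type to be checked by marker expression. Exact Clopper-Pearson intervals at 95% are given with many of the shares, though not with all, and cover counting error only.

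Oxidative phosphorylation passes electrons from NADH and succinate through complexes I to IV and uses the resulting proton gradient to drive ATP synthase. A few subunits are encoded by mitochondrial DNA and translated on mitochondrial ribosomes, whereas the genes described here are nuclear and their products are imported. Their promoters are typically CpG-rich and carry sites for NRF1, ETS family factors such as GABP, and YY1. Dppa2 is a SAP domain protein of ESCs, the early embryo and the germ line.

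The sequences just upstream of the TSS are shown for 5 bound genes and for Cox4i1, the unbound paralogue of Cox4i2. They were chosen to show the highest-scoring peak (Mrpl48), the isoform pair (Cox4i2 and Cox4i1), a promoter with NRF1 letters (Ndufa11), a gap between head-to-head genes (Atp5c1) and a promoter with YY1 letters (Mrpl36). Each is the stretch of mm9 that ends 1 base before the TSS used by most transcripts, up to 100 bases long and cut where an annotated exon begins. They are written in the direction of transcription, and capitals mark CpG dinucleotides. In the order shown, the stretches lie at chr7:107756812-107756911 (minus strand), chr2:152579809-152579908 (plus), chr8:123192090-123192189 (plus), chr17:56857123-56857184 (plus), chr2:10002138-10002219 (minus) and chr13:73468357-73468456 (plus).
Mrpl48: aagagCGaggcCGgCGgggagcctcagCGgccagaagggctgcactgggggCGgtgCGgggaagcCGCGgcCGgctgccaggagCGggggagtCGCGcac
Cox4i2: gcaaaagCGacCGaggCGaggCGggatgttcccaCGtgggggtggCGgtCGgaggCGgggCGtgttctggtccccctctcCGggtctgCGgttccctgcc
Cox4i1: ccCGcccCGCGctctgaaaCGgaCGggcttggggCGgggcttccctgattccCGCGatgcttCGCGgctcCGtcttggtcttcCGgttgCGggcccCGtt
Ndufa11: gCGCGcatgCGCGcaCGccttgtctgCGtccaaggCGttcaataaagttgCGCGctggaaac
Atp5c1: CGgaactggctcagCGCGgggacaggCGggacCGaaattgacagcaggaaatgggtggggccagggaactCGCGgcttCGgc
Mrpl36: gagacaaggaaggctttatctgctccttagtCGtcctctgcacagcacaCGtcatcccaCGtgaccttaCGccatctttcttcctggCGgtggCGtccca

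Few of these promoters were bound. Dppa2 peaks were found at 9 of the 169 genes, which is 5.33% (95% interval 2.46 to 9.87%). Of all protein-coding genes 14.2% were bound (3169 of 22367), and of those outside this group also 14.2% (3160 of 22198). Most of the 169 genes had CpG-rich promoters, defined by a GC content of at least 50% and a CpG observed-to-expected ratio of at least 0.6 in the 1000 bp around the TSS. This held for 132 of them (78.1%), against 43.7% of the other protein-coding genes. Among other CpG-rich protein-coding genes 24.7% were bound (2391 of 9698, interval 23.8 to 25.5%), and among the CpG-rich genes of the group 6.06% (8 of 132, interval 2.65 to 11.6%). The intervals of these 2 shares do not overlap. Of the 37 genes of the group that were not CpG-rich, 1 was bound, which is 2.70% (interval 0.0684 to 14.2%), next to 6.15% of other such genes.

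**Figure D1:**
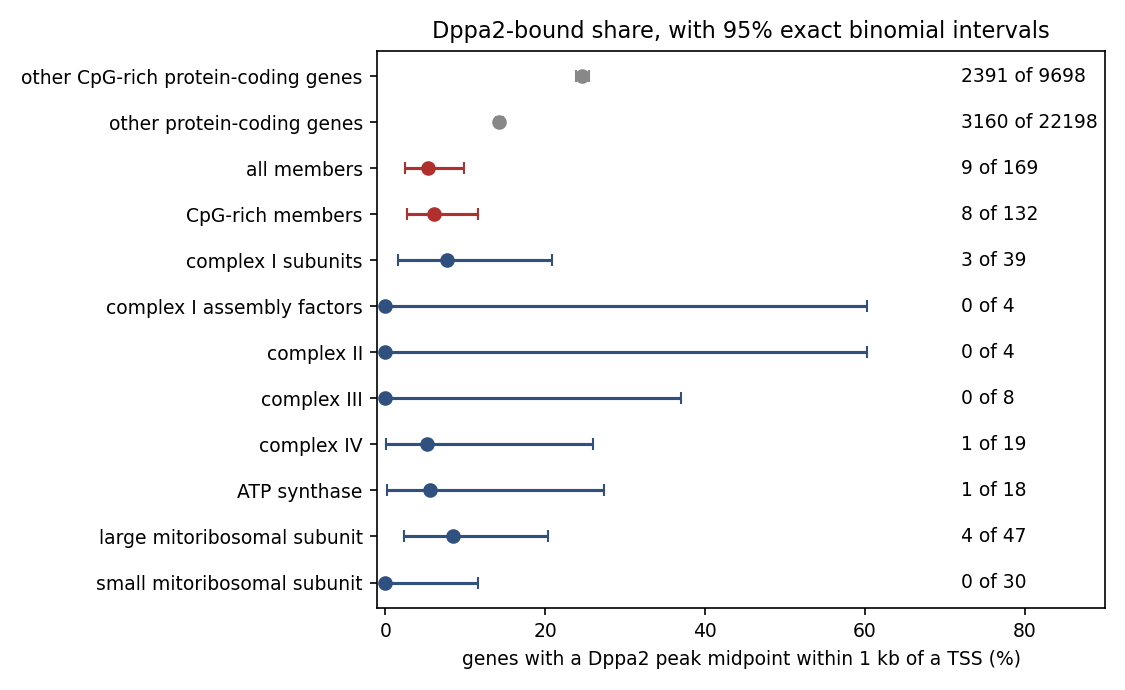
Share of genes with a Dppa2 peak midpoint within 1 kb of a TSS (x axis, %), with points for the share, bars for 95% exact binomial intervals and counts at the right; "members" are the 169 respiratory chain and mitochondrial ribosome genes. All 169 genes and their CpG-rich part lie at 5.33% and 6.06%, left of the other CpG-rich genes at 24.7%, while the intervals of the single complexes are wide and overlap each other.

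By complex, the bound genes were 3 of 39 complex I subunits (7.69%, interval 1.62 to 20.9%), 1 of 19 complex IV genes (5.26%, 0.133 to 26.0%) and 1 of 18 ATP synthase genes (5.56%, 0.141 to 27.3%). The large mitoribosomal subunit had 4 of 47 (8.51%, 2.37 to 20.4%). No gene was bound among the 30 of the small mitoribosomal subunit, for which the interval reaches 11.6%, nor among the 8 of complex III, where it reaches 36.9%. The 4 complex II genes and the 4 assembly factors also had none, and with so few genes the interval reaches 60.2%. All these intervals overlap, so the shares of the complexes could not be told apart. Respiratory chain and ATP synthase genes combined had 5 of 92 bound (5.43%), and the mitoribosomal genes 4 of 77 (5.19%).

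The highest score in the group was at Mrpl48 (ENSMUSG00000030706), which encodes a protein of the large mitoribosomal subunit and lies on chromosome 7 of mm9. Its peak, from 107755906 to 107757198, is 1293 bp wide and has a score of 370, which ranks 731 among the 3336 peaks. The midpoint lies in a UTR, 44 bp upstream of an internal TSS and 259 bp downstream of the TSS used by most transcripts. The promoter had the highest GC content among the bound genes, 68.5%, and the 100 bases shown above hold 12 CpGs. Rab6, a GTPase of Golgi transport, starts head to head with Mrpl48 and its TSS is 348 bp from the midpoint.

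Mrpl40 (ENSMUSG00000022706), on chromosome 16, had a peak from 18876066 to 18878289 with a score of 309 and rank 1067. At 2224 bp this is the widest of the 9 peaks. Its midpoint is 317 bp upstream of Mrpl40 but only 18 bp from a TSS of Hira, a chaperone of histone H3.3 that is transcribed in the opposite direction. Mrpl55 (ENSMUSG00000036860), on chromosome 11, had a peak from 59015318 to 59016548 with a score of 216 and rank 1802. The midpoint is 55 bp upstream of Mrpl55 and 46 bp from the TSS of the lincRNA gene 2610507I01Rik on the other strand. Mrpl36 (ENSMUSG00000021607), on chromosome 13, had a peak from 73468212 to 73469218 with a score of 246 and rank 1523. It was the only peak among these 4 mitoribosomal genes with no other gene within 1 kb of the midpoint, which falls in an intron 258 bp downstream of the TSS.

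Among the complex I subunits, all of them accessory subunits outside the catalytic core, the score was 205 at Ndufa11 (rank 1912), 151 at Ndufc2 (rank 2568) and 133 at Ndufa6 (rank 2850). The Ndufa11 peak (ENSMUSG00000002379) spans 56855628 to 56857838 on chromosome 17 and is 2211 bp wide. Its midpoint lies 452 bp upstream, the largest distance among the bound genes, and 389 bp from the TSS of Vmac, a coiled-coil protein associated with vimentin-type filaments. The peak of Ndufc2 (ENSMUSG00000030647), from 104548409 to 104549252 on chromosome 7, is the narrowest with 844 bp. Its midpoint falls in a coding exon 217 bp downstream of the nearest TSS. Ndufa6 (ENSMUSG00000022450) had a peak from 82184170 to 82185526 on chromosome 15, with the midpoint 127 bp upstream and no other gene within 1 kb of it.

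Atp5c1 (ENSMUSG00000025781) encodes the gamma subunit of ATP synthase, the shaft that turns inside the catalytic head. The peak, from 10001532 to 10002729 on chromosome 2, has a score of 138 and rank 2761. The peak centre falls in a UTR, 7 bp into the gene and 90 bp from the start of Kin, which encodes a nuclear zinc finger protein and starts on the opposite strand. The 82 bases shown above, which separate the exons of the 2 genes, hold 8 CpGs.

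Cox4i2 (ENSMUSG00000009876) encodes an alternative form of cytochrome c oxidase subunit 4 that is known for its expression in lung. Its peak, from 152579154 to 152580500 on chromosome 2, is 1347 bp wide with a score of 301 and rank 1118. The midpoint lies 82 bp upstream of the TSS between genes, with no other TSS within 1 kb. It was the only bound gene of the group without a CpG-rich promoter by the definition used, with a GC content of 59.9% and a CpG ratio of 0.380 over 1000 bp. CpGs were nevertheless dense next to the TSS, with 11 in the 100 bases shown above, a CpG ratio of 0.873 over that stretch. Cox4i1, the widely expressed form on chromosome 8, had a GC content of 72.5% and a CpG ratio of 0.974 over 1000 bp, with 14 CpGs in its 100 bases. No peak midpoint lay within 33.9 kb of a TSS of Cox4i1.

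**Figure D2:**
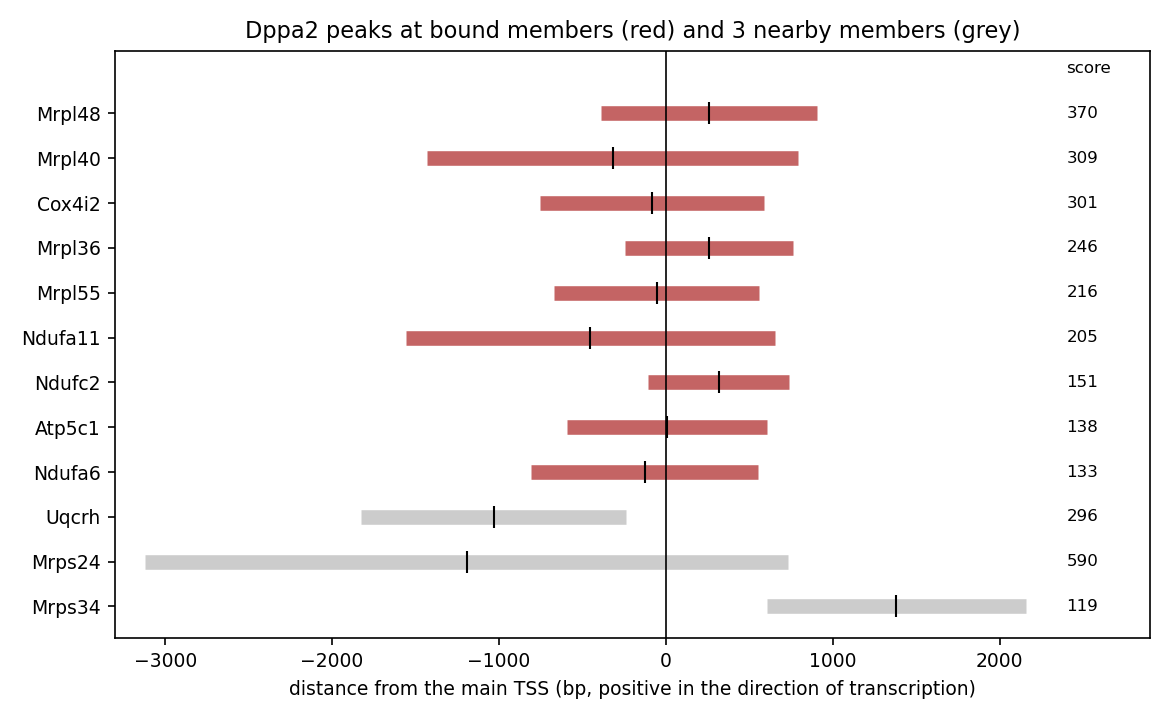
Position of Dppa2 peaks (bars) and their midpoints (black ticks) relative to the TSS used by most transcripts (x axis, bp, positive downstream), with the peak score at the right. Red bars are the 9 bound genes, in each of which the peak covers the TSS; grey bars are Uqcrh, Mrps24 and Mrps34, whose midpoints lie 1032 to 1362 bp from their nearest TSS.

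The peak scores at the 9 genes were in the range seen elsewhere. They ran from 133 to 370 with a median of 216, and peaks at other bound CpG-rich genes had a median of 215 with quartiles at 149 and 319. A score of at least 200 was reached by 6 of the 9 peaks (66.7%) and by 55.6% of the others. The median width was 1293 bp, and 1453 bp for peaks at other bound CpG-rich genes. The midpoint lay upstream of the nearest TSS at 6 of the 9 genes and downstream at 3. It lay downstream at 1620 and upstream at 763 of the 2391 other bound CpG-rich genes, and a difference was not tested. At Mrpl48 the midpoint was upstream of an internal TSS but 259 bp downstream of the main TSS. At Mrpl40, Mrpl55 and Ndufa11, also counted as upstream, it was nearer to the TSS of a head-to-head partner. By annotation, 3 midpoints were in UTRs, 3 between genes, 2 in introns and 1 in a coding exon. In 7 of the 9 peaks no 36-mer occurred more than once in mm9, and the share of repeated 36-mers was 2.92% at Mrpl40 and 1.11% at Ndufc2.

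Another gene had its TSS within 1 kb of the midpoint for 5 of the 9 bound genes (55.6%, interval 21.2 to 86.3%). The share was 25.7% of other bound CpG-rich genes, which lies inside this interval. In the group the other genes were the head-to-head partners of Mrpl48, Mrpl40, Mrpl55, Ndufa11 and Atp5c1. The midpoint was nearer to the partner in 3 of them (Mrpl40, Mrpl55 and Ndufa11) and nearer to the gene of the group in 2. A peak list does not tell which of the 2 genes a peak belongs to. Head-to-head partners within 1 kb were common in the group, with 57 of 169 genes (33.7%), against 23.9% of other CpG-rich genes. With a partner, 5 of 57 were bound (8.77%, interval 2.91 to 19.3%), and without, 4 of 112 (3.57%, 0.982 to 8.89%), so the 2 intervals overlap. Among the CpG-rich genes of the group it was 5 of 53 with a partner (9.43%, 3.13 to 20.7%) and 3 of 79 without (3.80%, 0.790 to 10.7%), again with overlap. Of other CpG-rich genes, 20.6% were bound with a partner (interval 18.9 to 22.3%) and 25.9% without (24.9 to 27.0%).

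For 8 further genes the nearest midpoint lay between 1 and 5 kb from a TSS, which is 5.00% of the 160 unbound genes (interval 2.18 to 9.61%) and 1.63% of unbound other CpG-rich genes (1.35 to 1.95%). Uqcrh, the hinge protein of complex III, lay just outside the window at 1032 bp, and the midpoint of that peak (score 296) was 558 bp from the TSS of its head-to-head partner Lrrc41. Mrps24, of the small mitoribosomal subunit, was 1194 bp from the midpoint of a peak of 3850 bp with a score of 590. This peak covered the TSS of Mrps24, and no TSS of any gene lay within 1 kb of its midpoint. Mrps34 was 1362 bp from the midpoint and 585 bp from the edge of a peak (score 119), and the midpoint was 3 bp from the TSS of Nme3, a nucleoside diphosphate kinase. The other 5 genes were between 1801 and 4051 bp from a midpoint, each of which had another gene closer to it. Ndufb10 lay near the peak at Rps2, a cytosolic ribosomal protein gene, in which 41.7% of the 36-mers were repeated in mm9. Ndufs6 lay near the peak of Mrpl36, Mrpl22 near that of Gemin5, Mrpl38 near that of Trim65 and Ndufv1 near that of Doc2g. The remaining 152 genes had no midpoint within 5 kb, and over all 160 unbound genes the median distance was 92.9 kb, next to 131 kb for other unbound CpG-rich genes. Peak names in the list refer to TSSs, but 55 of the 3336 peaks (1.65%) had no TSS of the annotation used within 1 kb of the midpoint, so how far the list covers sites away from TSSs is not known.

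The group was CpG-rich but moderate in GC content. Its median GC content was 56.1% (quartiles 52.3 and 59.3%), and its CpG-rich part had 57.1%. Other CpG-rich genes had 61.8%, and those bound by Dppa2 65.5%. The median CpG ratio was 0.767 in the CpG-rich part of the group and 0.787 in other CpG-rich genes, with 0.832 in the bound ones. The bound genes of the group had a median GC content of 59.9%, from 54.3% at Ndufc2 and Mrpl36 to 68.5% at Mrpl48.

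**Figure D3:**
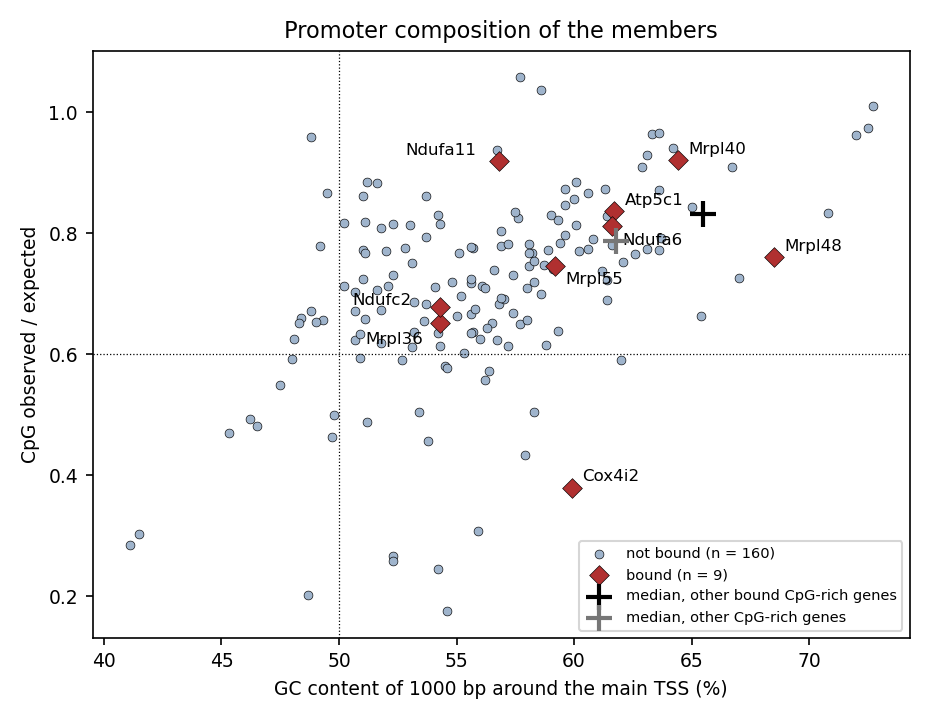
GC content (x axis, %) and CpG observed-to-expected ratio (y axis) of the 1000 bp around the main TSS of each of the 169 genes ("members"), with the 160 unbound genes as blue points, the 9 bound genes as named red diamonds, crosses for the medians of other CpG-rich genes (grey) and of those bound (black), and dotted lines at the limits for CpG-rich promoters. The group has a median GC content of 56.1%, the black cross stands at 65.5%, and Cox4i2 is the bound gene under the lower CpG limit.

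Since the bound share of other genes rose with GC content, from 0.817% in the lowest decile to 45.7% in the highest, the shares were also set beside each other within deciles. Weighting the other protein-coding genes to the CpG deciles of the group gave a bound share of 20.1%, which would correspond to 34.0 of 169 genes. Weighting them to the GC deciles gave 13.7%, or 23.2 genes, and weighting by quintiles of both gave 14.4%, or 24.4 genes. The observed 9 genes (5.33%, interval 2.46 to 9.87%) were below each of these. In the upper 4 deciles of GC content, 6 of 70 genes of the group were bound (8.57%, interval 3.21 to 17.7%), against 28.3% of other genes (27.4 to 29.3%). In the lower 6 deciles the shares were 3.03% (3 of 99, interval 0.629 to 8.60%) and 4.72% (4.36 to 5.09%), and these intervals overlap. The split into 6 and 4 deciles was made after the values had been seen.

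**Figure D4:**
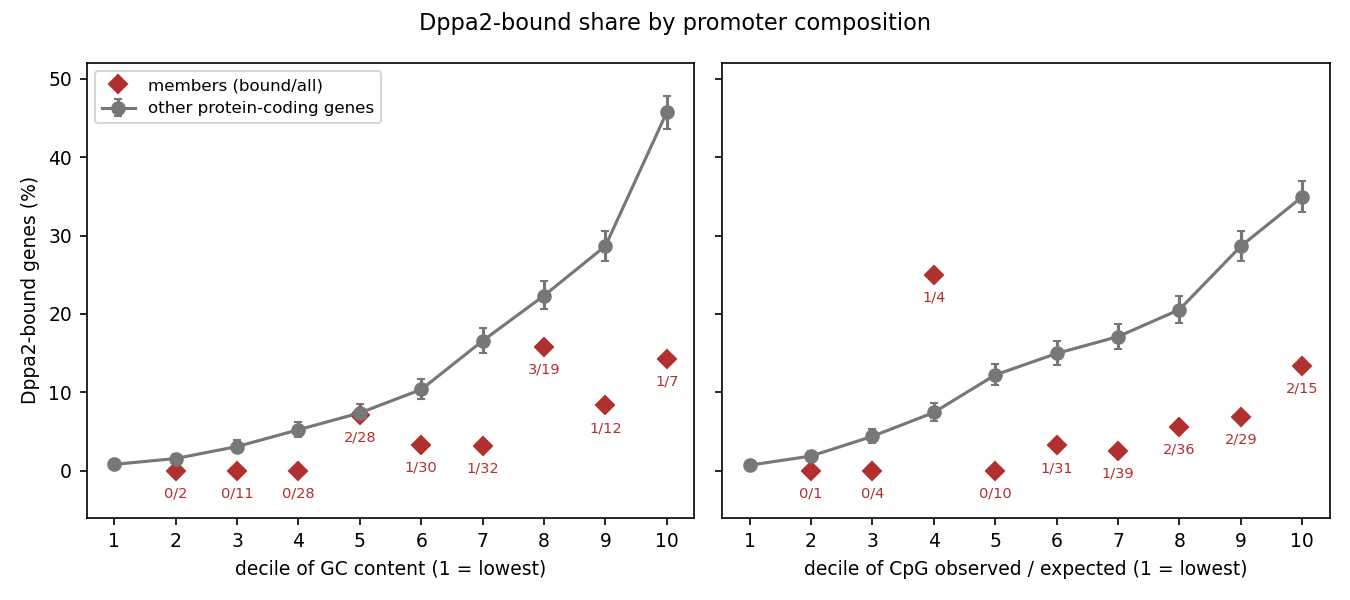
Dppa2-bound share (y axis, %) by decile of GC content (left) and of CpG observed-to-expected ratio (right) of the promoter, for other protein-coding genes (grey, with 95% exact intervals) and for the 169 genes ("members", red, with bound and total counts and no error bars). The grey share rises to 45.7% in the highest GC decile and 34.9% in the highest CpG decile, while the red points stand at 1 of 7 and 2 of 15 genes there. The red point far above the grey line, in CpG decile 4, rests on 1 of 4 genes.

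The bound genes were spread over 7 chromosomes. Of the 6 genes of the group on chromosome 8, where 34.8% of other CpG-rich genes were bound, none had a peak, and the interval reaches 45.9%. On chromosome 11 it was 1 of 14 (Mrpl55), beside 25.4% of other CpG-rich genes, and on chromosome X none of 3, beside 2.67%.

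Several subunits have paralogous forms, of which some are restricted to muscle, heart, lung or testis. In the group 8 such families with 19 genes had at least 2 forms in the annotation, and Cox4i2 was the only bound gene among the 19. Of all protein-coding genes 14.2% were bound, and of other genes that were not CpG-rich 6.15%. A count of 1 in 19 cannot be told apart from either share. Of the 19 genes 10 were not CpG-rich, including the muscle forms Cox6a2, Cox7a1 and Cox8b and the testis forms Cox6b2, Cox7b2 and Cox8c. The others were Cox4i2, Ndufa4l2, and Cox6b1 (GC content 49.2%) and Cox7b (CpG ratio 0.482), the paralogues of Cox6b2 and Cox7b2. The CpG ratios were 0.266 at Cox6a2, 0.257 at Cox7a1 and 0.245 at Cox8b, lower than the 0.380 of Cox4i2. Among the testis forms they were 0.433 at Cox6b2, 0.469 at Cox7b2 and 0.462 at Cox8c. Their nearest peak midpoints were at least 36.3 kb away, at Cox6b2. The widely expressed forms Cox6a1, Cox7a2 and Cox8a, with CpG ratios of 0.964, 0.768 and 0.693, were not bound either. The nearest midpoint was 80.8 kb from Cox6a1, 307 kb from Cox7a2 and 161 kb from Cox8a. The 3 genes for the membrane ring subunit of ATP synthase, Atp5g1, Atp5g2 and Atp5g3, had CpG ratios of 0.667, 0.745 and 0.814 and none was bound. Likewise unbound were the other forms Ndufa4 and Ndufa4l2, Cox6b1, Cox7a2l and Cox7b. Among genes without a second form here, Cox6c, Uqcrfs1, which encodes the Rieske iron-sulfur protein, and Sdha to Sdhd, the 4 subunits of complex II, were unbound too.

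Exact letters of 6 motifs were counted on both strands in the 300 bp from 250 bp before to 50 bp after the main TSS. The letters were CCGGAAG for ETS factors, AAGATGGC for YY1, GCGCATGCG for NRF1, TGACGTCA for the cAMP response element (CRE), CCAAT for the CCAAT box and GGGCGG for the GC box, and no motif contains another. A match is a description of the sequence and not a binding site. ETS letters were found in 26.6% of the 169 promoters (interval 20.1 to 34.0%), in 18.9% of other CpG-rich promoters and in 10.8% of all protein-coding promoters. YY1 letters were found in 13.0% (8.34 to 19.0%), 4.99% and 3.48%, and NRF1 letters in 7.69% (4.16 to 12.8%), 3.98% and 2.07%. In other CpG-rich promoters the intervals were 18.1 to 19.7% for ETS, 4.57 to 5.44% for YY1 and 3.60 to 4.39% for NRF1 letters. Of these, only the NRF1 interval overlapped that of the group. GC boxes were found in 46.2% of the group (38.5 to 54.0%) and in 73.7% of other CpG-rich promoters (72.8 to 74.6%), with no overlap of the intervals, and in 43.7% of all. The group here includes its 37 genes that were not CpG-rich. Its median GC content was 56.1%, below the 61.8% of other CpG-rich genes, and GC boxes consist of G and C only. CRE and CCAAT letters were found in 3.55% and 40.8% of the group, next to 3.82% and 37.2% in other CpG-rich promoters and 2.33% and 37.7% in all.

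**Figure D5:**
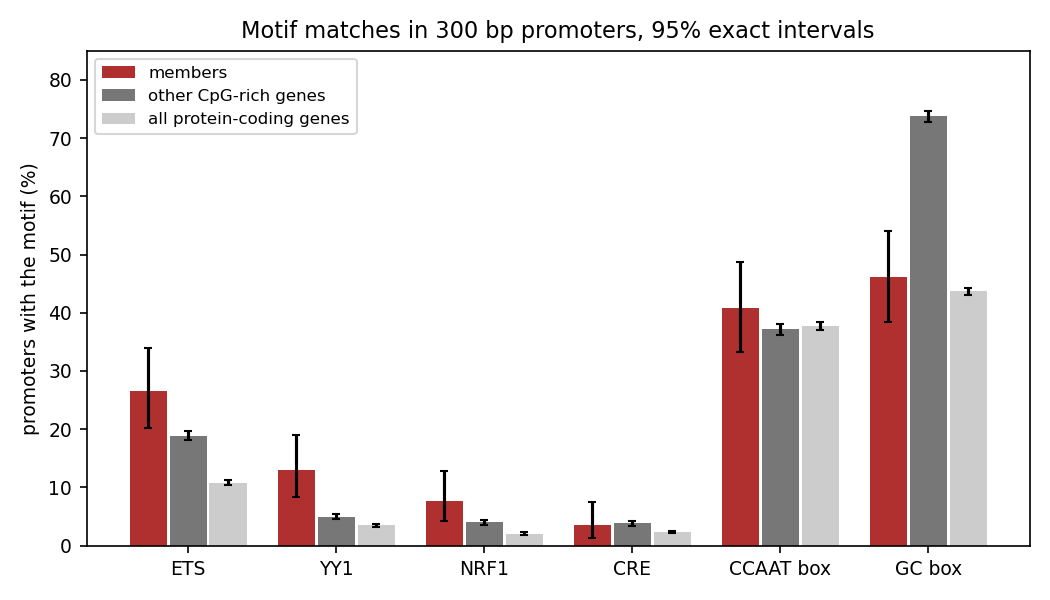
Share of promoters (y axis, %) that hold each motif (x axis) within 300 bp, for the 169 genes ("members", red), other CpG-rich genes (dark grey) and all protein-coding genes (light grey), with 95% exact intervals. ETS, YY1 and NRF1 letters are at 26.6, 13.0 and 7.69% in the group, and GC boxes at 46.2% against 73.7% in other CpG-rich genes.

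Of the 9 bound promoters none held ETS letters, which with 9 promoters allows a share of up to 33.6%, and of the 160 unbound ones 28.1% did (interval 21.3 to 35.8%). Among other CpG-rich genes, ETS letters were in 11.8% of bound promoters (interval 10.6 to 13.2%) and in 21.2% of unbound ones (20.2 to 22.1%). YY1 letters were in 2.80% of bound (2.18 to 3.55%) and 5.71% of unbound (5.19 to 6.26%) CpG-rich promoters, and in the group in 1 of the 9 bound, Mrpl36. GC boxes were in 79.1% of bound (77.4 to 80.7%) and 71.9% of unbound (70.9 to 73.0%) CpG-rich promoters, and in 4 of the 9 bound genes of the group, Mrpl48, Mrpl40, Mrpl55 and Ndufa6. NRF1 and CRE letters were each found in 1 bound gene, Ndufa11, and CCAAT letters in 5. The promoter of Cox4i2 held none of the 6 motifs. The motif shares of bound and unbound CpG-rich promoters were not matched for composition. Median GC content was 65.5% in the bound other CpG-rich genes and 61.8% in all other CpG-rich genes. Whether this difference bears on the motif shares was not tested.

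Other genes of mitochondrial function were listed for comparison. In the 6 lists together 11 of 83 genes were bound (13.3%, interval 6.81 to 22.5%), an interval that overlaps that of the group. This share is near the 14.2% of all protein-coding genes and below the 24.7% of other CpG-rich genes, while 81.9% of the 83 genes were CpG-rich. The counts of the single lists are too small to be told apart from either share. Complex IV assembly factors and cytochrome c had 3 of the 15 found in the annotation (of 17 symbols), namely Cox18, an insertase (score 295), Sco2, a copper chaperone (142), and Cox11, also a copper chaperone (107). Mitochondrial DNA and transcription had 3 of 16: Gabpb1, a subunit of the ETS complex GABP (242), Polg, the mitochondrial DNA polymerase (148), and the regulator Nrf1 (116). Mitochondrial translation had 2 of 15, Mrp63, a further mitoribosomal protein whose symbol lies outside the rule (197), and the elongation factor Tufm (160). Protein import had 1 of 18 found (of 19 symbols), the inner membrane channel Timm23 (202). The tricarboxylic acid cycle had 2 of 14, Idh2 (287) and Ogdh (114), and the 5 regulators of ATP synthase had none. Cytosolic ribosomal protein genes had 6 of 81 bound (7.41%, interval 2.77 to 15.4%) with Rps2 (score 450), Rpl36, Rpl28, Rpl15, Rpl13a and Rpl10l, a share near that of the group.

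Because the authors kept the best alignment of reads with several, peaks elsewhere that resemble exons of these genes were searched for with megablast. Exons of 9 genes of the group matched 19 peaks at other loci over at least 200 bp at 85% identity or more. At 4 of these peaks a match was longer than 250 bp, a limit chosen after the values had been seen. The longest, 915 bp at 93.3% identity, was between Mrpl12 and a peak at the pseudogene Gm15770 on chromosome 5 with a score of 108 and 18.6% of its 36-mers repeated in mm9. Ndufa11 matched a peak at the pseudogene Gm4943 on chromosome 16 over 523 bp at 93.7% identity, with a score of 342, which is higher than the 205 of the peak at Ndufa11 itself, and 8.76% of its 36-mers were repeated. Ndufab1, the acyl carrier protein, matched peaks at Gm7964 over 341 bp (score 476) and at the pseudogene Gm11249 over 284 bp (score 221), in which 60.9% and 67.9% of the 36-mers were repeated. Mrpl12 and Ndufab1 were not bound at their own promoters. At the other 15 peaks the matches were 200 to 214 bp long. Of these, 4 were matched by Mrpl13, Ndufab1 and Mrps26 alike, and 7 by Mrpl35. The highest score among the 15, 1143, was at a peak on chromosome 2 that Mrpl13, Ndufab1 and Mrps26 all matched. There 100% of the 36-mers were repeated in mm9. Whether these short matches are copies of the genes or a repeat found at many loci was not tested. Nor was it tested whether reads from the matching genes entered any of the 19 peaks.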

How the data were processed

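Anti-V5 ChIP-seq was performed by the authors on V5-Dppa2 and parental CGR8 ESCs, with 1 library each, and the V5-Dppa2 peak list was analysed; 5 samples were not analysed here. Per the submitters' processing notes, Bowtie 0.12.7, Picard 1.81 and MACS 1.4.2 were used with mm9. The authors filtered reads of low complexity, allowed at most 2 mismatches in a 36-base seed, reported the best alignment, discarded duplicates, called peaks at a shift size of 75 bp and retained those with p ≤ 1e-10 and at least 100 reads. The deposited score is −log10 of the p-value from MACS, multiplied by 10. Peak names begin with TSS.

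TSSs and genes were taken from GENCODE M1 and sequence from NCBIM37, the same build as mm9. Composition was computed over 1000 bp around the TSS with most transcripts (the most 5′ on ties). In the absence of replicates no test was run. Named genes are all bound genes, unbound genes with a midpoint within 5 kb, the isoform families, bound genes of the other lists, and genes that share peaks or match exons. Genes, lists and comparisons were chosen with earlier results of these data known. The assignment, the weighting and the 36-mer counts were checked on simulated data. Python 3.11.15, numpy 2.4.6, scipy 1.17.1, pysam 0.24.0, matplotlib 3.10.9 and BLAST 2.17.0 were used.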

Additional observations from a re-analysis of the deposited data

How the results depend on the processing

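The number of bound genes, 9, was 9 with a window of 500 bp, 13 with 2000 bp, 12 with any part of a peak inside the window (Mrps24, Mrps34 and Uqcrh added), 9 with the TSS used by most transcripts, 8 with coding transcripts only and 8 without chromosomes 8, 11 and X. With peaks scoring 200 or more it was 6, without Atp5c1, Ndufa6 and Ndufc2. It was 4 without genes that have a head-to-head partner, and 4, or 2.44% of 164 genes, when genes that share a peak were left out, since 5 of the 9 share theirs. Only bound genes can share a peak, so this last setting lowers any share by construction. The share of other CpG-rich genes, 24.7%, was 22.6% with 500 bp, 13.5% with peaks scoring 200 or more, 25.9% without partners and 19.6% without shared peaks. It was 31.5% when CpG-rich meant 55% GC and a ratio of 0.75, and 22.6% when it meant a ratio of 0.6 in the 300 bp promoter. The share in the group, over all its genes kept by the setting and not only the CpG-rich ones, was lower each time. For the 2 CpG definitions it was the main share, 5.33%. Except without partners, the CpG-rich genes of the group were not counted separately under these settings. The weighted share of other genes, 20.1%, became 13.7% by GC decile, 14.4% by quintiles of both measures and 11.1% with peaks scoring 200 or more. The number of peaks with exon matches, 19, was 248 over at least 100 bp and 0 at 95% identity. Leaving out 5 symbols that lie outside the complexes or are named as pseudogenes (Cox4nb, Atp5l-ps1, Mrps36-ps1, Atp5s and Atp5sl) gave 9 of 164 genes (5.49%). That alternative and the quintiles were chosen after seeing the data. No paired analysis was possible because each condition has 1 library, which also leaves no replicate to omit, weaker peaks under the authors' thresholds are not seen, and 2 entries of the annotation share the symbol Ndufb8.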
